A study of Mus musculus with 22 samples.

Results

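The Reg genes encode small secreted proteins of the C-type lectin fold, and the mouse members Reg1, Reg2, Reg3a, Reg3b, Reg3d, Reg3g and Reg4 were followed here by name through 22 RNA sequencing libraries of mouse pancreatic cancer. All 7 were present among the 53342 genes of each count table. They were made from whole pancreatic tumors or from cultured cancer cells derived from them, and every animal was labelled Bl6. Titles carry the prefix KPC, the usual name of a genetically engineered mouse model of pancreatic cancer, and the culture notes name a recombined p53 allele, with loss of heterozygosity in the lines. The groups were 8 tumors labelled miR21 KO, 4 tumors labelled WT, 5 lines labelled miR21 KO and 5 lines labelled WT, so KO and WT samples share the tumor model and differ by microRNA-21 (miR-21). None received a treatment. Lines had been passaged at least 8 times, were used at passage 10 to 14 in 5% serum, and each came from the tumor of 1 animal. By title, 5 animals contributed a tumor and a line each. Ages, the Cre driver and the cells that lack miR-21 are not given in the sources used here.

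In the pancreas, Reg proteins are products of the acinar cell, the cell that also makes digestive enzymes, and their mRNAs climb steeply in pancreatitis and other injury. Reg1 is lithostathine, also called pancreatic stone protein; Reg2 is its rodent relative; Reg3b is the pancreatitis-associated protein; Reg3g is a bactericidal lectin best known from the intestine; Reg4 is known from the gut and from endocrine and mucus cells there. Interleukin-6 family cytokines act through the receptor subunit gp130 and the transcription factor STAT3, which is a known inducer of Reg3 genes, and Extl3 has been reported as a cell surface receptor for Reg proteins. MiR-21 is a small RNA that represses mRNAs carrying a match to its seed, bases 2 to 8 of the mature strand.

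Library totals ran from 24547650 to 31118113 counts, so that a count of 0 in the shallowest library allows up to 0.122 CPM (3 counts at that library total, counting error only). Apart from such limits for a single library, all CPM were divided by the TMM factor of the library as well. The precursor gene Mir21a had 0 counts in all 22 libraries, KO and WT, so these mRNA libraries do not check the genotype labels. The 10 duct markers summed to 4205 to 8675 CPM in KO tumors, 7064 to 14488 CPM in WT tumors, 9152 to 12442 CPM in KO lines and 7669 to 15175 CPM in WT lines. Fibroblast markers summed to at most 14.6 CPM in any line, against at least 1215 CPM in any tumor. The lines thus carried duct markers and hardly any fibroblast markers, and the tumors were mixtures of cell types. In such mixtures fewer cells of a type and less RNA per cell cannot be told apart.

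On build mm10, 6 of the 7 genes lie in 1 cluster on chromosome 6, in the order Reg3b (ENSMUSG00000071356.7, 78370657 to 78373466, plus strand), Reg3d (ENSMUSG00000068341.8, 78375874 to 78378865, minus), Reg3a (ENSMUSG00000079516.2, 78380709 to 78383827, plus), Reg2 (ENSMUSG00000023140.4, 78395623 to 78408106, plus), Reg1 (ENSMUSG00000059654.7, 78422711 to 78428667, plus) and Reg3g (ENSMUSG00000030017.2, 78466269 to 78468872, minus). Reg4 (ENSMUSG00000027876.4) lies apart on chromosome 3, 98222156 to 98236748, plus strand. No other annotated gene overlaps a member. Coding sequences were most alike between Reg1 and Reg2, at 82.5% of aligned bases identical, and between Reg3b and Reg3g, at 76.4%, and least alike between Reg3b and Reg4, at 57.4%. No stretch of 75 bases, the read length, was shared between members, so that full-length reads can be told apart. Reg2 alone shared such stretches with other genes, 40 of 874 (4.58%), for example with Wapl.

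The mature strand of miR-21 and the match to its seed in the family are shown because genotype is defined by this RNA. Capitals mark the seed and its match.
mmu-miR-21a-5p, chr11:86584120-86584141, minus strand: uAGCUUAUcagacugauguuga
Reg3b 3′ UTR, chr6:78373435-78373464, plus strand: aattctaaaataaaaATAAGCTttctgtca
The ATAAGCT match of Reg3b begins at base 184 of its 200-base 3′ UTR, at position 78373450 of chromosome 6. None of the other 6 members held a 7-base match in the 3′ UTR, and 1484 of 20854 annotated 3′ UTRs (7.12%; median length 945 bases) did. Such a match describes the letters and is not a measured binding site.

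The promoters of the 4 most abundant members are shown next because most results turn on these members; RefSeq's window on build GRCm38.p6 runs from 250 bases before to 50 bases after the start. Capitals mark TATAAA, read on either strand, and STAT-type motifs.
Reg1, chr6:78425733-78426032, plus strand: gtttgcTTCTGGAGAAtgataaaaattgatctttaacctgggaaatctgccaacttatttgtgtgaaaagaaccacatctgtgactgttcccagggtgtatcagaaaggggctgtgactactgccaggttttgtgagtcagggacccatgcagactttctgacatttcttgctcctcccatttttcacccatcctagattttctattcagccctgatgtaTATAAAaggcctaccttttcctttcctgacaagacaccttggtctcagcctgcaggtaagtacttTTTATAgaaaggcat
Reg2, chr6:78404905-78405204, plus strand: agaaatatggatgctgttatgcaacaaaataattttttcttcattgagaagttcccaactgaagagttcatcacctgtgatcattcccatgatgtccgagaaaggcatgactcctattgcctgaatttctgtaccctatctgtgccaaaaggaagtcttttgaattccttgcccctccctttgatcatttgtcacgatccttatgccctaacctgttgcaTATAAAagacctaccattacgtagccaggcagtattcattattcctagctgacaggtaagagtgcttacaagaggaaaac
Reg3b, chr6:78370635-78370934, plus strand: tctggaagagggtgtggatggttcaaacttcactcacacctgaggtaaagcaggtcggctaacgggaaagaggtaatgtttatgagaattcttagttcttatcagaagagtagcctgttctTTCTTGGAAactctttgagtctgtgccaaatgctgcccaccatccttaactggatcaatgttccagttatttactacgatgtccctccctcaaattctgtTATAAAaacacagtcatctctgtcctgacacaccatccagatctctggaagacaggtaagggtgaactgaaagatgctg
Reg3g, chr6:78468825-78469124, minus strand: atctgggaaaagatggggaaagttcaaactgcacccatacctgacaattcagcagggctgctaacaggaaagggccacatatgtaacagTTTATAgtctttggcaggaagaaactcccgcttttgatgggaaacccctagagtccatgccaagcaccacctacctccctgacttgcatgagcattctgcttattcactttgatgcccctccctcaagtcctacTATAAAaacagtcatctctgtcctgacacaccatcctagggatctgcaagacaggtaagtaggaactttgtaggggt
TATAAA was found on the sense strand in these 4 promoters, beginning at base -30 in Reg1 and Reg2, -29 in Reg3b and -27 in Reg3g, and not in those of Reg3a, Reg3d and Reg4. It was found on either strand in 13.6% of all 32851 promoters. The STAT motif TTCNNNGAA stood in Reg3b at -129 and in Reg3d at -238, 2 of the 7 members, against 8.30% of all promoters. Its form with a gap of 4 bases stood in Reg1 alone, at -244, against 6.95%. The E box CANNTG, a motif of helix-loop-helix factors such as the acinar factor Ptf1a, was in all 7 and in 72.3% of all promoters.

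All members but Reg4 were abundant in at least some tumors and were close to absent from the cancer cells in culture. Summed over the family, KO tumors had 202 to 40461 reads and WT tumors 250 to 14702, against 0 to 13 reads in KO lines and 0 to 31 in WT lines. Over the 10 lines together, Reg1 had 10 reads, Reg3b 21, Reg3g 23 and Reg4 5, and Reg2, Reg3a and Reg3d had 0. Of the 23 Reg3g reads, 22 came from WT line 3. In the 5 animals with both samples the same gap was seen within the animal. The family had 40461 reads in the tumor of KPC2157 and 4 in its line. The tumor of KPC21171 had 202 reads and its line 0. In the WT animals the tumor and line of KPC190 had 4628 and 4 reads, those of KPC202 had 5060 and 1, and those of KPC232 had 250 and 0.

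Tested with edgeR's quasi-likelihood test over all 22 libraries, tumors (n = 12) were higher than lines (n = 10) in 6 of the 6 members that passed the low-count filter, against a background of 38.5% of 18662 genes called higher. The members passed that filter through the tumors, so the count describes them and is no support of its own. The log2 fold change was 12.02 ± 1.04 (SE) for Reg1 (adjusted p = 7.19e-09), 10.33 ± 1.00 for Reg3b (adjusted p = 3.18e-08) and 10.96 ± 1.38 for Reg3g (adjusted p = 3.37e-06). In CPM these genes averaged 6093-fold (counting interval 3313 to 12705), 1937-fold (1267 to 3129) and 670-fold (447 to 1057) above the summed lines. Single lines carry these ratios: Reg1 came to 11123-fold (4766 to 34256) without KO line 4, and Reg3g, with 1 line read left, to 13924-fold (2499 to 549950) without WT line 3, where its log2 fold change was 12.82. Reg2, Reg3a and Reg3d, at 0 in every line, were at least 5292-fold, 421-fold and 156-fold higher in tumors when set against 3 counts over all lines (adjusted p = 2.56e-04, 2.67e-04 and 0.00118). Without KO tumor 4 these limits were 2932-fold for Reg2 and 86.3-fold for Reg3d. Reg4 was not tested; its tumor mean of 0.393 CPM was 20.2-fold (8.67 to 62.3) above the lines, and without KO tumor 5, which held most of it, the ratio was 2.59 (1.11 to 7.97). Scaling by library totals alone moved the genes called from 7187 higher and 5040 lower to 8335 higher and 3566 lower; all 6 members stayed among those called higher. Acinar markers summed to 30.9 to 3302 CPM in KO tumors and 18.0 to 712 CPM in WT tumors, against 4.41 to 22.5 CPM in KO lines and 1.53 to 22.5 CPM in WT lines, and 6 of the 18 acinar markers, Cpa1 and Gp2 among them, had 0 counts in every line. WT tumor 1, with an acinar sum of 18.0 CPM, had 162 CPM of the family. KO line 4 and WT line 5, with 22.5 CPM each, had 0.223 and 0 CPM. The sums of lines and tumors are not alike, since those of lines were mostly Cela1 and Bhlha15. These averaged 8.72 and 0.505 CPM in KO lines and 5.60 and 3.18 CPM in WT lines. Of the 18 markers, 11 were at 0 in KO line 4 and 13 in WT line 5, against 3 in WT tumor 1. The part of acinar cells, and of culture itself, in the gap was not tested.

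**Figure D1:**
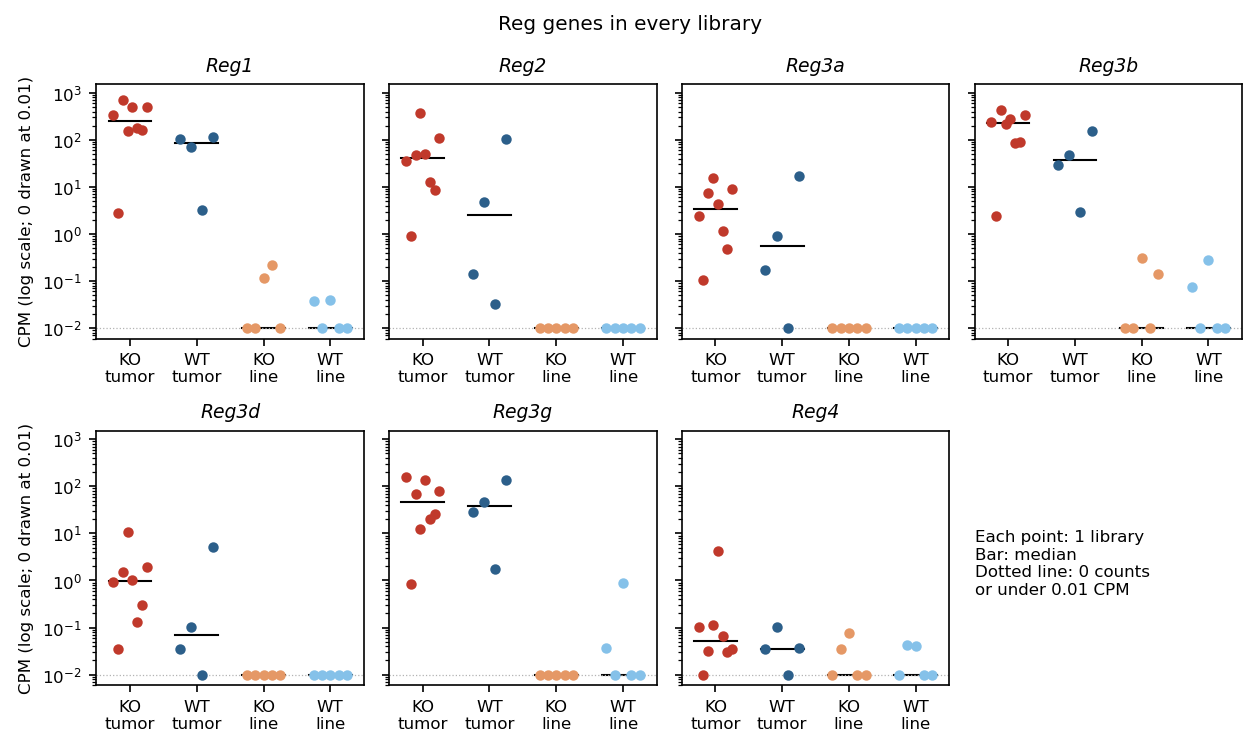
CPM of each Reg gene (log axis, 0 drawn at 0.01) in every library, by group; points are libraries and bars medians. Tumors reached 711 CPM for Reg1, and no line passed 0.885 CPM for any member, the highest line value being Reg3g in WT line 3.

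Levels between members were compared per kilobase of the longest coding transcript, as mean log2 CPM per kb over the 12 tumors. Reg1 (6.88) and Reg3b (6.55) led, followed by Reg3g (5.19), Reg2 (4.02), Reg3a (1.00), Reg3d (-0.39) and Reg4 (-2.70). Among the 6 neighbouring pairs, Reg1 with Reg3b (exact sign-flip permutation test over 12 tumors, adjusted p = 0.125; 8 of 12 tumors in this order) and Reg3g with Reg2 (adjusted p = 0.190; 9 of 12) did not differ beyond their spread. The other 4 pairs did, with adjusted p from 0.00293 to 0.0125. With all exonic bases as the length, Reg3g came to 3.73, next to Reg2 at 3.57, and the order stayed. By that length Reg3b came to 6.005 and Reg1 stayed at 6.88, so the gap between them was wider. The pairs were tested with the transcript length only, so the result for Reg1 with Reg3b holds for that length.

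The make-up of the family, as each member's share of the summed CPM per kb, was alike in most tumors. Reg1 and Reg3b together made up most of the family in every tumor other than KO tumor 4 and WT tumor 4. Reg1 took 16.9% in KO tumor 4 and 35.1 to 56.1% in the other 7 KO tumors, against 18.5% in WT tumor 4 and 37.2 to 60.4% in the other 3 WT tumors. In KO tumor 4, Reg2 alone took 51.1% and stood 3.03 times above Reg1 per kb. WT tumor 4 was the other tumor in which Reg2 exceeded Reg1, by 1.20 times, with 22.2% of the family. In the other 10 tumors that ratio lay between 0.00175 and 0.426. The same 2 tumors had summed acinar markers of 3302 CPM, the highest of the 8 KO tumors, and 712 CPM, the highest of the 4 WT tumors. KO tumor 8, at 1354 CPM, had a higher acinar sum than WT tumor 4. Its ratio of Reg2 to Reg1 was 0.288. The ratio of Reg3g to the closely related Reg3b, per kb, ranged from 0.0567 to 0.680 with a median of 0.273 in KO tumors, and from 0.590 to 1.03 with a median of 0.954 in WT tumors. This ratio was 1.00, 1.03, 0.590 and 0.903 in WT tumors 1 to 4, and only KO tumor 1 reached into that range. It was chosen after its values were seen and is given as a description, with no test.

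**Figure D2:**
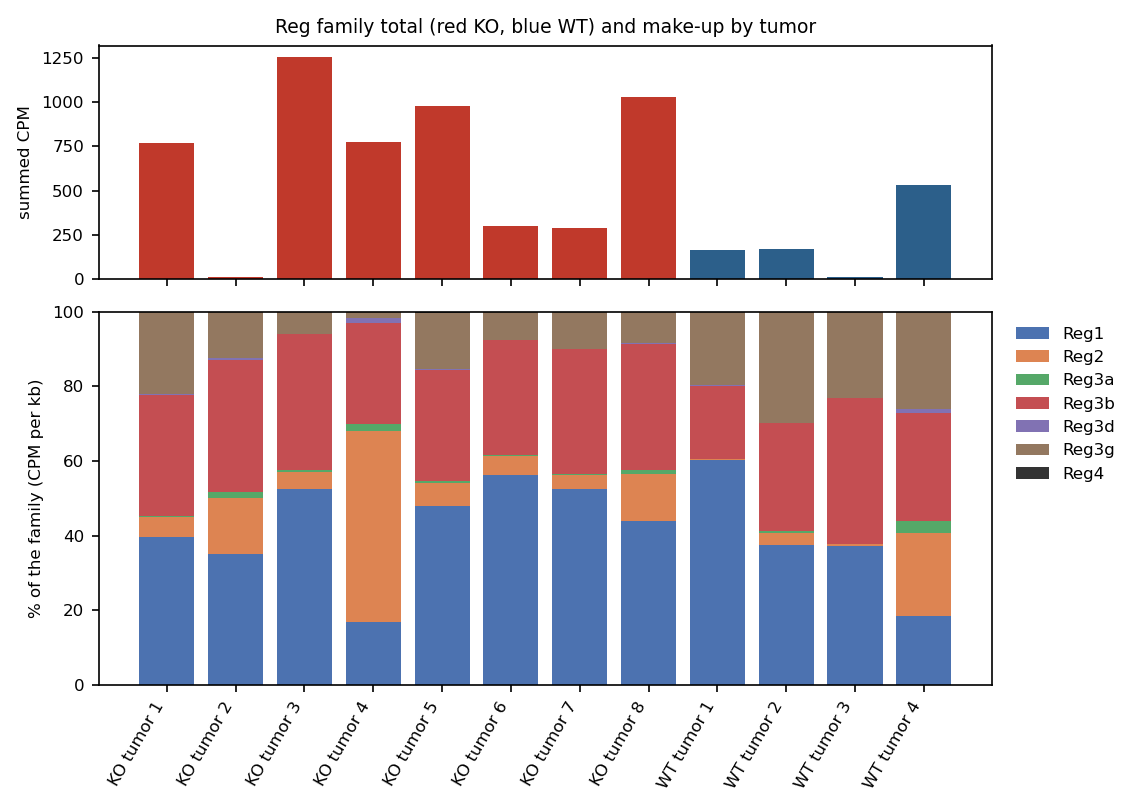
Summed CPM of the Reg family (top) and each member's percent of the family in CPM per kb (bottom) for the 8 KO and 4 WT tumors. Totals ran from 7.03 CPM in KO tumor 2 to 1260 CPM in KO tumor 3, and Reg2 took 51.1% in KO tumor 4.

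Whether loss of miR-21 changed the family in tumors is the comparison the labels name. Reg1 had 334, 2.75, 711, 156, 508, 179, 163 and 496 CPM in KO tumors 1 to 8, against 104, 70.0, 3.27 and 113 CPM in WT tumors 1 to 4. Thus 7 of 8 KO tumors lay above every WT tumor, and KO tumor 2 lay below all of them. The mean was 319 ± 237 CPM in KO tumors and 72.4 ± 49.7 CPM in WT tumors (SD, n = 8 and n = 4). The log2 fold change of 2.10 ± 1.04 (SE) did not pass edgeR's quasi-likelihood test (adjusted p = 0.334).

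Reg3b, the member with the seed match, had 237, 2.40, 425, 218, 274, 84.5, 89.7 and 332 CPM in KO tumors 1 to 8, against 29.2, 47.0, 2.98 and 153 CPM in WT tumors 1 to 4. The groups overlapped, with 5 of 8 KO tumors above every WT tumor. Means were 208 ± 141 CPM in KO tumors and 58.1 ± 65.9 CPM in WT tumors, with a log2 fold change of 1.80 ± 1.04 (edgeR adjusted p = 0.401). Reg3g, the lectin without such a match, had 159, 0.835, 67.7, 12.2, 137, 20.7, 26.3 and 80.6 CPM in KO tumors 1 to 8, against 28.9, 47.5, 1.73 and 136 CPM in WT tumors 1 to 4. Its groups lay over each other, with means of 63.0 ± 59.2 CPM in KO tumors and 53.6 ± 58.2 CPM in WT tumors and a log2 fold change of 0.21 ± 1.06 (edgeR adjusted p = 0.943).

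Reg2 had 36.0, 0.905, 46.7, 364, 50.9, 12.8, 8.77 and 110 CPM in KO tumors 1 to 8, against 0.140, 4.81, 0.0320 and 104 CPM in WT tumors 1 to 4. WT tumor 4 stood with the high KO tumors, WT tumors 1 and 3 stood near 0, and the groups overlapped. The log2 fold change was 1.48 ± 1.61 (edgeR adjusted p = 0.680). Reg3a and Reg3d, the lowest of the chromosome 6 members, had 0.104 to 15.5 CPM and 0.0348 to 10.7 CPM in KO tumors, against 0 to 17.4 CPM and 0 to 5.04 CPM in WT tumors. Their log2 fold changes were 0.08 ± 1.36 (edgeR adjusted p = 0.985) and 0.63 ± 1.48 (adjusted p = 0.869).

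Across the comparison, 0 of 6 tested members were called, also by DESeq2 and limma-voom, and 0 had an unadjusted p under 0.05. The background was 0.011%, 2 of 18125 genes, by edgeR; DESeq2 called 889 genes and limma-voom 4. All 6 members had a positive log2 fold change, as did 51.0% of all genes tested. The size of these changes hung on single tumors. Without WT tumor 4 they became 5.56 for Reg2, 3.77 for Reg3a, 2.96 for Reg3b, 5.36 for Reg3d and 1.27 for Reg3g, and without KO tumor 4 they became 0.43 for Reg2, -0.43 for Reg3a and -0.66 for Reg3d. Reg3a was also negative without WT tumor 1 (-0.34), WT tumor 2 (-0.27), WT tumor 3 (-0.35), KO tumor 3 (-0.02) or KO tumor 8 (-0.08). Reg3g was negative without WT tumor 3 (-0.20), KO tumor 1 (-0.16) or KO tumor 5 (-0.05). Reg1 kept 1.70 to 2.40 whichever tumor was left out, with an adjusted p of 0.159 without KO tumor 2 (0.135 to 0.717 over all 20 alternatives). None of these fits called a member.

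Markers of other cell types are given beside these values. Of the 18 acinar markers, 17 were tested, 16 had a positive log2 fold change and 0 were called (median 1.86, against 0.01 over all genes tested). Nr5a2 (2.35) and Cela1 (1.66) were the 2 with an unadjusted p under 0.05. The background for such counts by edgeR was 1512 genes higher and 1521 lower in KO tumors, of 18125 tested. Of the islet markers, 9 of 10 were tested and all 9 were positive (median 4.29, 0 called, 7 with an unadjusted p under 0.05), with summed levels of 1.36 to 444 CPM in KO tumors and 0.210 to 22.7 CPM in WT tumors. The duct markers lay the other way, with 2 of 10 positive, a median of -0.26, 0 called and 4 with an unadjusted p under 0.05, led by Krt18 (-1.27) and Krt7 (-1.08). All 6 fibroblast markers were positive (median 0.87, 0 called, 2 with an unadjusted p under 0.05), as were all 7 leukocyte markers (median 0.18, 0 called). Of the tested intestinal and hepatocyte markers, 6 of 9 and 2 of 3 were positive (medians 0.19 and 0.03, 0 called). DESeq2 called 2 acinar, 3 islet and 2 fibroblast markers higher in KO tumors. It called 3 duct markers and the hepatocyte marker Alb lower, and no Reg gene. Over all 18125 genes DESeq2 called 550 higher and 339 lower. The part of cell make-up in the Reg values was not tested beyond the covariate that follows. With the acinar mean as a covariate, the log2 fold change became 1.04 for Reg1 (edgeR adjusted p = 0.717), 0.68 for Reg2, 0.58 for Reg3b, -0.65 for Reg3a, -0.65 for Reg3d and -0.84 for Reg3g.

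**Figure D3:**
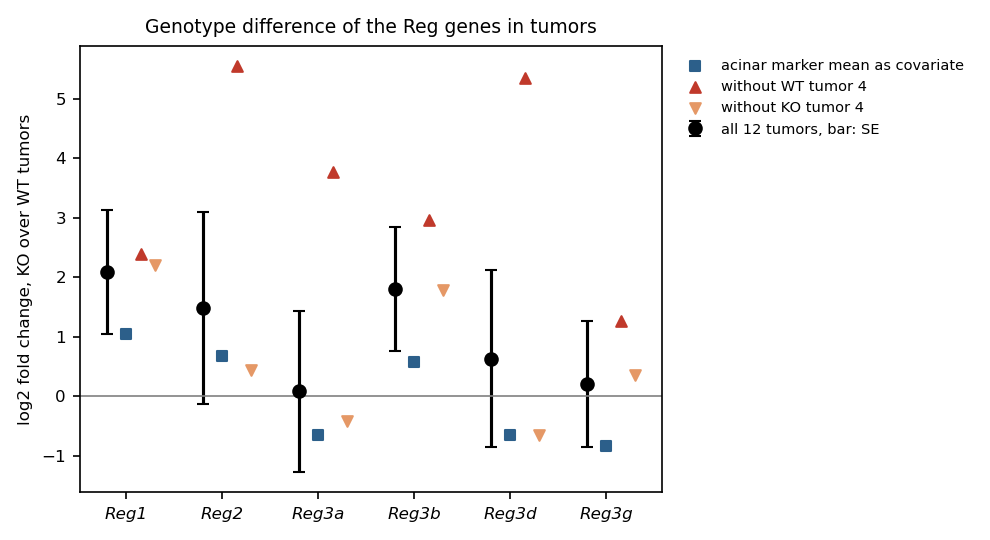
Log2 fold change of KO over WT tumors for the 6 tested Reg genes, with all 12 tumors (circles, bars show SE) and under 3 other fits (points without bars). Reg1, Reg2 and Reg3b stay above 0 in each, and Reg2 and Reg3d move to 5.56 and 5.36 without WT tumor 4.

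Within the tumors, the members followed the acinar markers to different degrees. Pearson's r of log2 CPM with the acinar mean over 12 tumors was 0.977 for Reg2, 0.960 for Reg3a and 0.959 for Reg3d (Spearman's rho 0.972, 0.944 and 0.979). For all 3 the permutation p of 2e-05 was the smallest that 100000 resamples can give (adjusted p = 4e-05). Reg3b was looser (r = 0.861, adjusted permutation p = 5.7e-04; rho = 0.825). Reg1 (r = 0.719, adjusted permutation p = 0.0128; rho = 0.601, adjusted p = 0.0523) and Reg3g (r = 0.626, adjusted permutation p = 0.0344; rho = 0.490, adjusted p = 0.110) were loosest and did not pass on ranks. Without KO tumor 4 and WT tumor 3, the 2 tumors farthest from the median acinar mean, r lay between 0.715 and 0.973. Within the 8 KO tumors, Reg1 (r = 0.696, adjusted permutation p = 0.112) and Reg3g (r = 0.564, adjusted permutation p = 0.171) no longer passed, and the other 4 did. The 4 WT tumors were too few for a correlation of their own. Differences between these correlations were not tested.

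**Figure D4:**
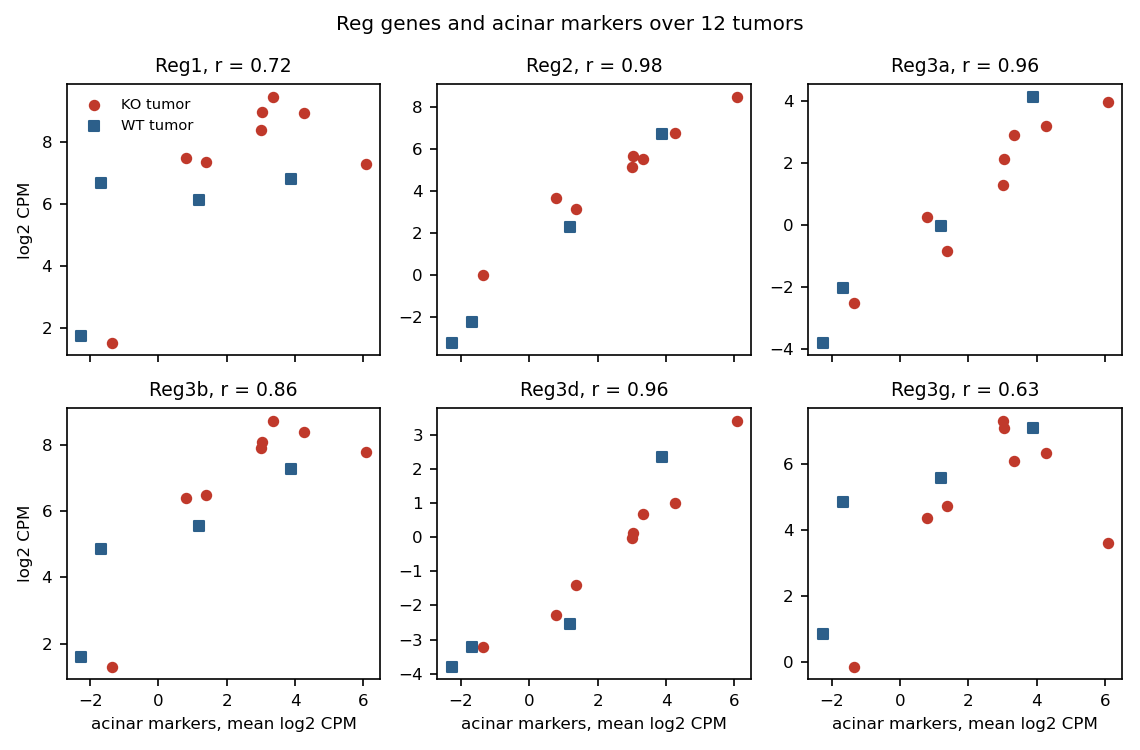
Log2 CPM of 6 Reg genes against the mean log2 CPM of 18 acinar markers, for 8 KO (circles) and 4 WT tumors (squares). Reg2, Reg3a and Reg3d lie close to a line, and KO tumor 4, at the right edge, sits low for Reg3g with 12.2 CPM.

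The members were also set against the other marker lists. Over 42 relations of 6 members with 7 lists, Reg1 (r = 0.766, rho = 0.818, adjusted permutation p = 0.0124) and Reg3b (r = 0.779, rho = 0.853, adjusted permutation p = 0.0146) were correlated with the islet markers, and Reg3g with the intestinal markers (r = 0.585, rho = 0.741, adjusted permutation p = 0.0311). Without the 2 tumors farthest from the median of the list, r was 0.777, 0.703 and 0.830. With the fibroblast markers Reg2 (rho = 0.727, adjusted permutation p = 0.0481) and Reg3b (rho = 0.762, adjusted permutation p = 0.0335) passed on ranks and not on r (adjusted permutation p = 0.0573 for each). No relation with duct, hepatocyte or leukocyte markers passed. Adjusted over these 42 relations, Reg1 and Reg3g no longer passed with the acinar markers (adjusted permutation p = 0.0562 and 0.103), and the other 4 did. These lists were added after the acinar list had been examined. Among the members, r was highest between Reg1 and Reg3b (r = 0.969, rho = 0.923), Reg2 and Reg3a (0.956 and 0.958) and Reg3a and Reg3d (0.947 and 0.972). Their order depends on the measure: on rho, Reg2 with Reg3d and Reg3a with Reg3d (0.972 each) stood above Reg1 with Reg3b, and without the 2 tumors farthest from the median of the member named first r was 0.846 for Reg1 with Reg3b, against 0.956 for Reg2 with Reg3a. The lowest r was that of Reg3d and Reg3g (r = 0.549, adjusted permutation p = 0.0548 over 15 pairs). For the pairs closest in coding sequence, r was 0.726 for Reg1 with Reg2 and 0.873 for Reg3b with Reg3g. Several relations rested on 2 tumors: without them r was 0.457 for Reg1 with Reg2, 0.420 for Reg1 with Reg3a, 0.337 for Reg1 with Reg3d, 0.439 for Reg1 with Reg3g and 0.444 for Reg3b with Reg3g.

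The genes most like each member over the 12 tumors are given as a description. For Reg2 they were Prss2 (r = 0.994), Cel, Pnliprp1, Cpa1 and Ctrb1, all digestive enzymes or lipase relatives of the acinar cell. For Reg3a they were Sycn (r = 0.959), a zymogen granule protein, then Cpa1, Cel, Prss2 and Cpb1. For Reg3d they included 2210010C04Rik (r = 0.971), Sycn, Cela2a and Klk1. No acinar marker was among the 5 genes most like Reg1 (Stra6l at r = 0.943, A130050O07Rik, B930082K07Rik, Iyd and Grip2), Reg3b (Iyd at r = 0.978, Tcf7l1, Zkscan7, Pnp2 and Zfp750) or Reg3g (Nlrp10 at r = 0.971, Wfdc18, Ctf1, D7Ertd443e and 4632427E13Rik).

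Reg4 behaved apart from the cluster on chromosome 6. It had 123 reads (4.16 CPM) in KO tumor 5 and 0 to 3 reads in each of the other 11 tumors, and its KO and WT tumors averaged 0.568 ± 1.45 and 0.0430 ± 0.0421 CPM. KO tumor 5 also had the highest sum of intestinal markers, 799 CPM, against 31.1 to 213 CPM in the other KO tumors and 77.0 to 522 CPM in WT tumors. In it Alpi, intestinal alkaline phosphatase, reached 216 CPM, Apoa4 46.3 CPM, Fabp2 36.6 CPM, Sis, sucrase-isomaltase, 23.7 CPM and Muc2, the goblet cell mucin, 57.6 CPM. These genes were picked from the 15 intestinal markers and do not make up the whole sum. Retnlb was at 0 in every library. Over all tumors 6 of 9 tested intestinal markers had a positive log2 fold change of KO over WT. Those of Olfm4 (-2.20), Cdx2 (-0.79) and Lct (-0.12) were negative. The part of intestinal tissue in this Reg4 value was not tested.

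In the lines no member passed the low-count filter, so that 0 of 7 were tested between KO and WT lines. Reg1 had 8 reads over the 5 KO lines, 5 of them in KO line 4, and 2 over the 5 WT lines. Reg3b had 12 reads in KO lines and 9 in WT lines, and Reg3g 0 reads in KO lines and 23 in WT lines. At these counts a difference between KO and WT lines was not detectable. The genotype effect in tumors minus that in lines was called for 0 of 6 tested members and 0% of 18662 genes by edgeR, with 0 members at an unadjusted p under 0.05, and DESeq2 and limma-voom also called 0 members. Its largest value, 5.63 ± 3.55 for Reg3g (edgeR adjusted p = 0.711), rests on the reads of WT line 3 and was 1.93 without it.

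Lists of STAT3 ligands, receptors and transducers, the reported Reg receptor and other injury proteins were read alongside the Reg genes. Counts of genes higher in tumors are read against the 38.5% of all tested genes called higher. Of the STAT3 ligands, 4 of 6 were tested and all 4 were higher in tumors than in lines: Osm (log2 fold change 9.0), Il6 (7.25), Il11 (3.64) and Lif (0.54, edgeR adjusted p = 0.0257). In the fit of lines alone only Lif passed the low-count filter, so this count describes the ligands and is no support of its own. Osm had 0 counts in all 10 lines and Il6 in 7, so their fold changes have no firm line value. Of 8 receptor genes 6 were higher, among them Osmr (3.53), Il6ra (1.9), Il11ra1 (1.51) and Il17ra (1.09), which encodes an interleukin-17 receptor. Il22ra1 was lower (-1.69). Of 6 transducers and targets, Socs3 (1.26), the feedback inhibitor that STAT3 induces, Stat3 (0.67) and the kinase Pim1 (0.79) were higher and Jak2 was lower (-0.34), so that 3 of 6 were higher, a share near the background. Extl3, the reported Reg receptor, had a log2 fold change of -0.06 ± 0.10 (edgeR adjusted p = 0.652). Of 11 other secreted proteins of pancreatic injury, 8 were higher. By smallest p, Saa3 (13.34), Muc6 (12.07), Dmbt1 (3.55) and Lcn2 (6.10) came first. Saa3, Muc6 and Lcn2 did not pass the filter in the fit of lines alone, so this count too is a description. The medians were 5.44 for ligands, 0.98 for receptors, 0.44 for transducers and 3.55 for injury proteins, against 0.15 over all genes tested.

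Between KO and WT tumors edgeR called 0 genes in these 5 lists. Il6ra (log2 fold change 1.25 ± 0.32, adjusted p = 0.139) and Il6st, which encodes gp130 (0.81 ± 0.22, adjusted p = 0.145), had the smallest p values among receptors, and Lcn2, lipocalin 2 (2.18 ± 0.50, adjusted p = 0.128), among injury proteins. DESeq2 called these 3 genes, and limma-voom called none. Stat3 (0.41 ± 0.16, adjusted p = 0.234), Lif (-0.74 ± 0.34, adjusted p = 0.304) and Extl3 (-0.04 ± 0.17, adjusted p = 0.922) did not pass either. The list medians were -0.30 for ligands, 0.46 for receptors, -0.08 for transducers and 0.10 for injury proteins. Between KO and WT lines edgeR also called 0 genes in these lists, as did limma-voom. DESeq2 called Spp1 higher in KO lines, among 46 genes it called of 14020. All 8 tested injury proteins and all 6 transducers had a positive edgeR log2 fold change (medians 0.997 and 0.21), against 46.3% of all genes tested. Of the receptors 4 of 8 were positive, as were Extl3 and Lif, the only ligand tested.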

How the data were processed

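RNA of 12 tumors and 10 lines was sequenced from a stranded mRNA kit as single reads of 75 bases, per the labels' protocols. The submitters' processing notes name bcl2fastq 1.9.0, Trim Galore, STAR and build mm10. The deposited values are raw counts of reads, 1 value per gene and library, as the authors produced them; the counter, its annotation and its strand setting are not given in the sources used here. Gene IDs were matched without version to GENCODE vM21, which gave 53237 of 53342 a symbol; the 105 others hold 0.00944% of counts.

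Tests used edgeR 4.0.16 (R 4.3.3) with filterByExpr, TMM factors, robust quasi-likelihood fits and Benjamini-Hochberg adjustment over all genes tested, threshold 0.05. Each SE is the log2 fold change divided by the root of its F statistic. Lines and tumors were fitted apart (14020 and 18125 genes); the other contrasts used all libraries (18662 genes). Correlations used log2 CPM with a prior count of 2 and 100000 permutations (scipy 1.17.1), for members at a mean of at least 1 CPM in tumors. Intervals are 95% Poisson and cover counting error only. Scripts were tested on simulated data. Replicates are separate animals by title, and replicate numbers were not used as pairs across groups. WT line 1 and WT tumor 1 share animal KPC190, and WT line 2 and WT tumor 2 share KPC202. Of all animals 5 have both samples, which enters the block alternative (consensus correlation 0.287).

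Alternatives were RLE factors, totals alone, other filters, DESeq2 1.42.0, limma-voom 3.58.1, covariate, block and left-out libraries. The members, lists and tests were chosen with earlier results of these data known. Named genes were the members, up to 4 per list by smallest p, and the 5 genes most like each member; Jak2, Cpa1, Gp2, Extl3, Retnlb and the intestinal genes of KO tumor 5 illustrate their lists. Some genes of this rule are not reported here.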

Additional observations from a re-analysis of the deposited data

Results flagged for a closer look

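Of 21 groups of values tested, 8 held a library whose gap to its neighbour took up most of the group's range; chance gives about 1 in 20 groups if values are independent and normally spread, which these skewed CPM of correlated genes are not, so the 8 are a list of values to look at and no excess. Among KO tumors, KO tumor 4 stood apart for Reg2 (364 CPM) and Reg3d (10.7 CPM), and KO tumor 5 for Reg4 (4.16 CPM). Among WT tumors, WT tumor 4 stood apart for Reg2 (104 CPM), Reg3a (17.4 CPM) and Reg3d (5.04 CPM). Among WT lines, WT line 3 stood apart for Reg3g (0.885 CPM, 22 reads) and Reg3b (0.282 CPM). KO tumor 4 and WT tumor 4 had the highest acinar sums of their genotype, 3302 and 712 CPM, and KO tumor 5 the highest intestinal sum, 799 CPM. KO tumor 8 had a higher acinar sum than WT tumor 4, 1354 CPM, and did not stand apart for any member.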

How the results depend on the processing

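The number of members called was the same under every alternative run: 6 between tumors and lines, 0 for genotype in tumors and 0 for the difference of genotype effects, also with the replicate block by animal (6 and 0 called). Leaving out any 1 library gave 6 called between tumors and lines and 0 in the other comparisons. Without a low-count filter, 7 members were tested in these comparisons, with 6, 0 and 0 called, and 4 in lines, with 0 called. Counts over all genes moved more: 2 genes were called between KO and WT tumors by edgeR, 889 by DESeq2, 82 without KO tumor 2 and 57 without WT tumor 2; 2 and, by DESeq2, 46 between KO and WT lines; 0 and 67 for the difference of effects. Their cause was not tested. Single log2 fold changes of KO over WT tumors ranged from 1.04 to 2.40 for Reg1 and from 0.58 to 2.96 for Reg3b; Reg3a, Reg3d and Reg3g changed sign in 7, 2 and 4 of 20 alternatives. With KO tumors 4 and 8 and WT tumor 4 left out together, Reg1 had 2.39 and Reg2 3.97, and 0 members were called. In a single line a count of 0 allows up to 0.121 CPM at the library total (KO line 4), which limits what can be said of the Reg genes there. With the TMM factor of that line, 0.906, the limit is higher.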

Other observations

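The ratio of Reg2 to Reg1 per kb ran from 0.0698 to 3.03 in KO tumors and from 0.00175 to 1.20 in WT tumors. WT tumor 1 had the lowest ratio, with 103.6 CPM of Reg1 and 0.140 CPM of Reg2 beside summed acinar markers of 18.0 CPM, the lowest sum of the 12 tumors. By mean log2 CPM of the acinar markers WT tumor 3 was lower, at -2.27 against -1.67 in WT tumor 1. WT tumor 1 had 29.2 CPM of Reg3b and 28.9 CPM of Reg3g, and 3 of its 18 acinar markers were at 0. KO tumor 2 and WT tumor 3, with 30.9 and 26.4 CPM of acinar markers and 6 of the 18 at 0 in each, had 2.75 and 3.27 CPM of Reg1.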
